A study of Mus musculus with 2 samples.

Results

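The genes described here are 38 components of epithelial tight junctions, desmosomes and adherens junctions, measured at E12.5 in B6NCrl mouse embryos, in the facial prominence from which the face forms. They were taken by symbol from the gene tables of annotation release M21, which hold 55536 genes, 22028 of them protein-coding, and all 38 were found. Replicate 1 was a pool of 120 embryos and replicate 2 a pool of 88, both of mixed sex and both from whole tissue, so epithelium, mesenchyme, nerve, muscle and vessels were read together. The labels give 1 tissue and 1 age, so the 2 libraries form 1 group with no comparison between conditions, and no p-value is given. Levels are in TPM, which is each gene's share of all transcripts, added spike-in RNAs included, once length is corrected for. The spike-ins held 65218 TPM in replicate 1 and 71718 TPM in replicate 2. A gene was called detected where both replicates reached a TPM of 1.

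Tight junctions seal the space between epithelial cells with rows of claudins, which the cytoplasmic zonula occludens proteins tie to the actin cytoskeleton. Desmosomes join cells through the desmosomal cadherins, the desmogleins and desmocollins, whose tails bind plakoglobin and plakophilins and, through desmoplakin, the keratin filaments. Adherens junctions are built on classical cadherins, catenins and nectins, and several of their parts, among them alpha-catenin and the nectins, are also used by mesenchymal and neural cells. In the face the surface ectoderm is a thin layer over a large mass of mesenchyme.

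The epithelial marker list gave 346 TPM in replicate 1 and 343 TPM in replicate 2, summed over 10 of 10 detected genes. The mesenchymal list gave 1325 TPM in replicate 1 and 1331 TPM in replicate 2, over 5 of 5 genes. Most of this came from 1 gene, Col3a1, with 934 TPM in replicate 1 and 932 TPM in replicate 2, so the 2 sums do not measure the amounts of the tissues. In such bulk tissue fewer cells of a type and less RNA per cell cannot be told apart. The 38 junction genes took 38808 of 27887968 gene counts in replicate 1 and 55961 of 39819334 in replicate 2, or 0.139% in replicate 1 and 0.141% in replicate 2.

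Of the 38 junction genes, 37 were detected (97.4%), against 60.7% of all protein-coding genes. Their median level was 10.3 TPM, compared with 4.79 TPM over all protein-coding genes and 21.5 TPM over the 13382 detected ones. Dsg3, a desmoglein of stratified epithelium, was the exception, with 0.13 TPM from 15 counts in replicate 1 and 0.19 TPM from 30 counts in replicate 2. The summed level of all 38 was 773 TPM in replicate 1 and 785 TPM in replicate 2. Of the 38 genes, 20 were above 10 TPM, and 11 of the detected genes were under 5 TPM.

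**Figure D1:**
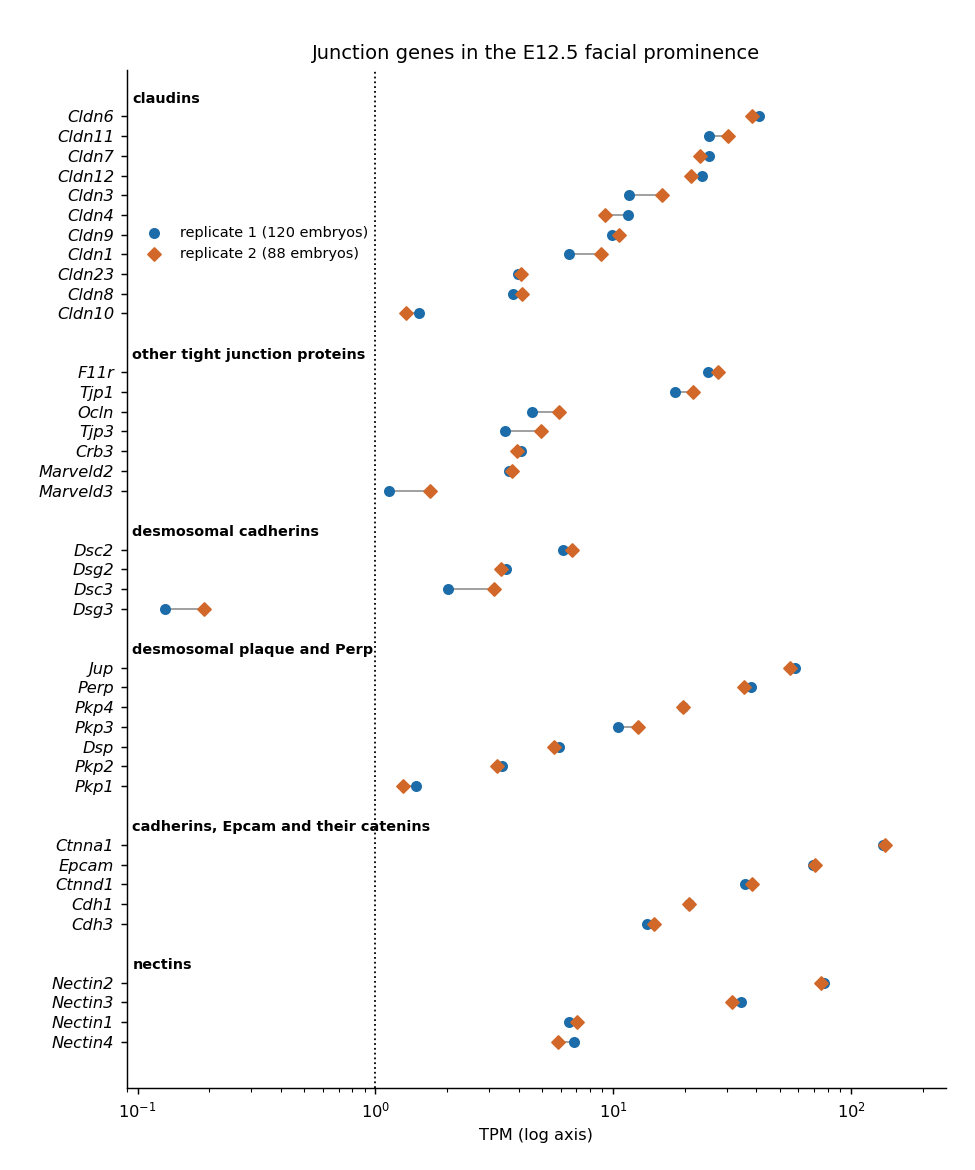
TPM of each of the 38 junction genes (log axis) in replicate 1 (circles) and replicate 2 (diamonds), grouped by role and sorted by mean level, with the dotted line at a TPM of 1. Ctnna1 lies highest at 137 and 139 TPM, and Dsg3 is the gene left of the line.

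The claudins, 4-pass membrane proteins that set what passes between cells, were all detected in both libraries, 11 of 11, and summed to 164 TPM in replicate 1 and 167 TPM in replicate 2. Cldn6, a claudin of early embryonic epithelia, led them with 41.1 TPM in replicate 1 and 38.5 TPM in replicate 2, a mean of 39.8 ± 1.87 TPM (SD, n = 2). Cldn11, known from myelin and Sertoli cells, followed at 27.7 ± 3.60 TPM (SD, n = 2). Cldn7, a partner of the adhesion protein Epcam, and Cldn12, an atypical claudin, stood at 24.2 ± 1.499 and 22.3 ± 1.697 TPM (SD, n = 2 each). The replicate ranges of Cldn11 and Cldn7 overlapped and their order differed between the libraries, so it is not fixed by these data. Cldn12 was below both in each library, and Cldn6 was above all of them in each.

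A middle set of claudins lay near 10 TPM. Cldn3, a sealing claudin, had 11.6 TPM in replicate 1 and 16.1 TPM in replicate 2. Cldn4, a sealing claudin whose gene lies beside that of Cldn3, had 11.5 TPM in replicate 1 and 9.20 TPM in replicate 2. Cldn9, a claudin of the inner ear, had 9.89 TPM in replicate 1 and 10.5 TPM in replicate 2. Cldn1, which is required for the skin barrier, was lower at 7.68 ± 1.68 TPM (SD, n = 2). Cldn23, Cldn8, a claudin of the renal collecting duct, and Cldn10, which forms ion-selective pores, were the lowest, at 4.03 ± 0.0849, 3.96 ± 0.226 and 1.44 ± 0.127 TPM (SD, n = 2 each).

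The neighbours Cldn3 and Cldn4 differed in opposite directions between the libraries. Cldn3 lies at chr5:134986214-134987472 on the plus strand and Cldn4 at chr5:134945119-134946934 on the minus strand (mm10), with 39279 bases between them. The ratio of Cldn3 to Cldn4 levels was 1.01 in replicate 1 and 1.75 in replicate 2. Cldn6 and Cldn9 are another pair, with 137 bases between their facing ends at chr17:23679249-23682446 and chr17:23682584-23684026. Their ratio stayed closer, at 4.16 in replicate 1 and 3.65 in replicate 2.

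The other 13 claudins listed for comparison added little beyond a pair of genes. Of these, 3 were detected: Cldn5, the claudin of blood vessels, at 23.9 TPM in replicate 1 and 25.0 in replicate 2, Cldn34c1 at 18.1 in replicate 1 and 16.2 in replicate 2, and Cldn13 at 2.30 in replicate 1 and 1.86 in replicate 2. Cldn16, Cldn17, Cldn18 and Cldn22 had a count of 0 in both libraries, which allows a share of up to 1.08e-05% of gene counts in replicate 1 and 7.53e-06% in replicate 2, for counting error only. Cldn2, Cldn14, Cldn15, Cldn19, Cldn20 and Cldn24 were under 1 TPM in both. The 24 listed claudins, which need not be the whole family, summed to 209 TPM in replicate 1 and 211 TPM in replicate 2. Of this sum Cldn6 made up 19.7% in replicate 1 and 18.2% in replicate 2.

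**Figure D2:**
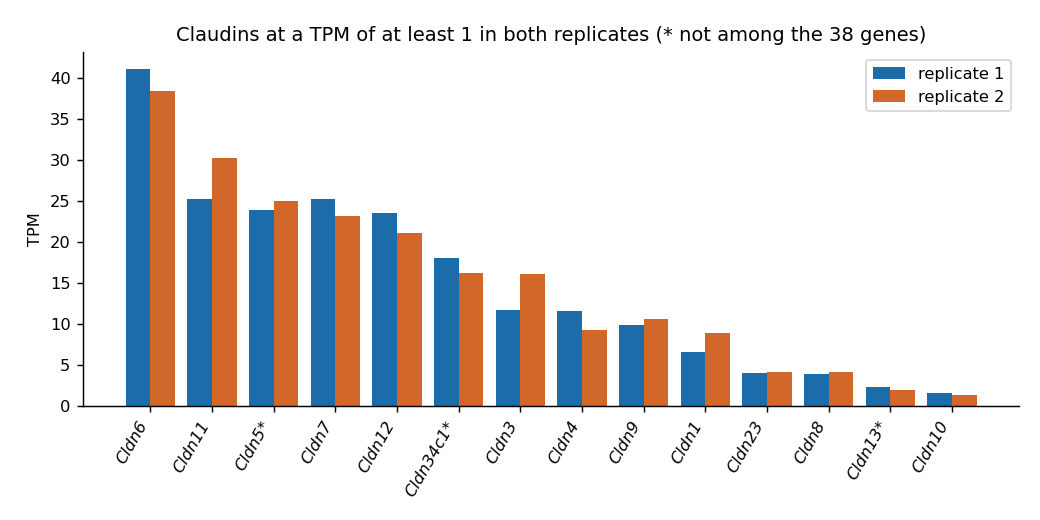
TPM of the 14 claudins detected in both libraries, out of the 24 listed. Replicate 1 is left and replicate 2 right in each pair of bars, with an asterisk on 3 that are not among the 38 junction genes. Cldn6 is the tallest in both libraries, and Cldn3 and Cldn4 differ in opposite directions.

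The other 7 tight junction genes summed to 60.2 TPM in replicate 1 and 69.4 TPM in replicate 2, and all were detected. F11r, which encodes the junctional adhesion molecule JAM-A, had 25.0 TPM in replicate 1 and 27.6 TPM in replicate 2. Tjp1, which encodes the scaffold ZO-1, had 18.2 TPM in replicate 1 and 21.6 in replicate 2. The 5 remaining genes were all several-fold lower. Ocln, for the 4-pass protein occludin, stood at 5.24 ± 0.940 TPM (SD, n = 2), and Marveld2, for tricellulin, which sits where 3 cells meet, at 3.71 ± 0.0778 TPM (SD, n = 2). Marveld3, related to both, stood at 1.42 ± 0.389 TPM and Crb3, an apical polarity protein, at 4.02 ± 0.127 TPM (SD, n = 2 each).

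Tjp3, which encodes the scaffold ZO-3, had 3.51 TPM in replicate 1 and 4.99 TPM in replicate 2, so Tjp1 exceeded it 5.17-fold in replicate 1 and 4.32-fold in replicate 2. Tjp3 shares exon bases with Apba3 on the opposite strand, which had 43.5 TPM in replicate 1 and 42.2 TPM in replicate 2. No source used here gives the strand setting of the counting. Expected counts were whole for Tjp3 (153 in replicate 1 and 252 in replicate 2) and for Apba3 (1245 in replicate 1 and 1788 in replicate 2). They thus show no reads divided in parts between these genes. Whether reads over the shared bases were given to the right gene was not tested. Crb3 likewise overlaps Dennd1c (2.48 TPM in replicate 1 and 1.06 TPM in replicate 2) and Ctnna1 overlaps Lrrtm2 (1.79 TPM in replicate 1 and 1.80 in replicate 2). Of the other 4 junction genes with an exon overlap on the opposite strand, Cldn3, Dsg2, Dsp and Nectin2, each partner was under 1 TPM.

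The desmosomal cadherins were the lowest group, summing to 11.9 TPM in replicate 1 and 13.4 TPM in replicate 2 with 3 of 4 detected. Dsc2, a desmocollin found in nearly all desmosomes, led with 6.16 TPM in replicate 1 and 6.69 TPM in replicate 2. Dsg2, the desmoglein of simple epithelia, had 3.55 TPM in replicate 1 and 3.36 TPM in replicate 2. Dsc3, a desmocollin of basal layers of stratified epithelium, had 2.02 TPM in replicate 1 and 3.15 in replicate 2. The 2 broadly used cadherins, Dsc2 and Dsg2, were thus above those of stratified epithelium, Dsc3 and Dsg3, in both libraries.

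Genes of the desmosomal plaque, with the desmosomal membrane protein Perp, were far more abundant, summing to 137 TPM in replicate 1 and 133 TPM in replicate 2. Jup, for plakoglobin, which serves desmosomes and adherens junctions, had 58.2 TPM in replicate 1 and 55.2 TPM in replicate 2. Perp, a target of p63 in mouse skin, had 38 TPM in replicate 1 and 35.4 TPM in replicate 2. Dsp, for desmoplakin, the obligate link to keratin, had 5.93 TPM in replicate 1 and 5.66 TPM in replicate 2. Jup therefore exceeded Dsp 9.81-fold in replicate 1 and 9.75-fold in replicate 2.

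The plakophilins, armadillo proteins of the plaque, ranked the same way in both libraries by total TPM of the gene. Pkp4, which is also found at adherens junctions, had 19.6 TPM in each library. Coding transcripts were estimated to make up 3.46 TPM of this in replicate 1 and 3.39 in replicate 2. Pkp3, found in most epithelia, had 10.5 TPM in replicate 1 and 12.7 TPM in replicate 2. Pkp2, known from simple epithelia and heart, and Pkp1, known from the suprabasal epidermis, were at 3.34 ± 0.120 and 1.39 ± 0.127 TPM (SD, n = 2 each).

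Adherens junction genes were the most abundant group, at 276 TPM in replicate 1 and 283 in replicate 2 over 5 genes. Ctnna1, for alpha-catenin, which couples cadherins to actin, was the most abundant with 138 ± 1.51 TPM (SD, n = 2). Epcam, an adhesion molecule of epithelial cells, stood at 69.7 ± 0.742 TPM, and Ctnnd1, for p120-catenin, which keeps cadherins at the membrane, at 37.0 ± 1.84 TPM (SD, n = 2 each). Cdh1, for E-cadherin, had 20.8 TPM in each library and Cdh3, for P-cadherin, 13.8 TPM in replicate 1 and 14.9 in replicate 2. These 2 neighbours lie at chr8:106603351-106670246 and chr8:106510891-106557297, both on the plus strand, 46053 bases apart. Their ratio was 1.504 in replicate 1 and 1.397 in replicate 2.

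E-cadherin transcripts stood well below those of N-cadherin in this tissue. The level of Cdh1 was 0.259 times that of Cdh2, which encodes N-cadherin of mesenchyme and nerve, in replicate 1 and 0.300 times in replicate 2. Ctnna1, which serves both, was 6.58 times Cdh1 in replicate 1 and 6.66 times in replicate 2.

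The nectins, immunoglobulin-like adhesion proteins, summed to 124 TPM in replicate 1 and 119 TPM in replicate 2. Nectin2 had 76.6 TPM in replicate 1 and 74.5 TPM in replicate 2, and Nectin3 had 34.5 in replicate 1 and 31.6 in replicate 2. Nectin1, mutated in a human cleft lip and palate syndrome with ectodermal dysplasia, and Nectin4, mutated in a human ectodermal dysplasia with syndactyly, were lower. Nectin1 stood at 6.78 ± 0.346 TPM and Nectin4 at 6.35 ± 0.707 TPM (SD, n = 2 each). Their replicate ranges overlapped, whereas Nectin2 exceeded Nectin1 11.7-fold in replicate 1 and 10.6-fold in replicate 2.

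Across all 38 genes in order of mean level, 22 of 37 neighbouring pairs had overlapping replicate ranges. The top 4 places, held by Ctnna1, Nectin2, Epcam and Jup, did not overlap with the next gene. The spread between replicates (SD over mean) had a median of 5.71% over the 37 detected junction genes and ran over 0.108% to 30.9%. Its median was 4.50% over detected protein-coding genes.

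Junction genes outside the 38 were detected in most scaffold and adherens lists and hardly at all among the remaining desmosomal genes. Of 27 tight junction and polarity scaffold genes, 26 were detected, with a median of 16.5 TPM, led by the adhesion molecule Jam3 at 87.0 TPM in replicate 1 and 93.6 in replicate 2, and the polarity gene Crb1 was the exception with 0.31 TPM in replicate 1 and 0.45 in replicate 2. Of 8 remaining desmosome and cornified envelope genes only Ppl and Evpl, for the linker proteins periplakin and envoplakin, were detected, at 2.51 and 2.30 TPM in replicate 1 and 2.61 and 2.43 TPM in replicate 2. Dsg1c, Dsg4 and Dsc1, desmosomal cadherins of differentiated skin and hair, had a count of 0 in both libraries, and Dsg1a, Dsg1b and Cdsn were under 1 TPM. Of 12 other adherens junction genes, 11 were detected, led by Ctnnb1, for beta-catenin, at 610 TPM in replicate 1 and 627 in replicate 2. Ctnna3, for the alpha-catenin of heart and testis, was the exception at 0.14 TPM in replicate 1 and 0.25 in replicate 2. Of 17 regulators of epithelial identity, 14 were detected, with Trp63, for the ectodermal regulator p63, at 20.2 TPM in replicate 1 and 19.7 in replicate 2.

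Differences between the pools were small for most junction genes. The replicate difference is log2 of (TPM + 1) in replicate 1 over replicate 2, and a 95% interval (exact, Clopper-Pearson) is given for the ratio of expected counts scaled by each library's gene counts, which covers counting error only. Of 37 detected junction genes, 0 differed by a log2 of at least 0.5 in either direction, against 1.16% of detected protein-coding genes higher in replicate 1 and 0.934% higher in replicate 2. Their median log2 difference was -0.02, compared with -0.00 over detected protein-coding genes, and 18 lay within 0.1 of 0.

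Higher in replicate 1 were 16 of the 37 (43.2%, against 49.5% of detected protein-coding genes) and higher in replicate 2 were 21 (56.8%, against 50.2%). The count ratio interval lay above 1 for 5 genes (13.5%, against 15.4%), namely Cldn4, Cldn12, Jup, Perp and Nectin4. It lay below 1 for 7 genes (18.9%, against 14.6%), namely Cldn1, Cldn3, Cldn11, Ocln, Dsc3, Ctnna1 and Ctnnd1. Both shares are close to those of the other detected genes, and the remaining 25 intervals included 1.

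With 1 TPM added, Dsc3 differed most, with 168 counts in replicate 1 and 364 in replicate 2, a log2 TPM difference of -0.46 and a count ratio of 0.659 (interval 0.546 to 0.793). With a pseudocount of 0.1 in place of 1 the log2 difference of Dsc3 was -0.62 and that of Marveld3 -0.53. Which gene differed most varied with the estimate, since Cldn3 (-0.40) passed Dsc3 (-0.38) by FPKM and Cldn4 (0.42) passed both under spike-in scaling. Cldn3 had 249 counts in replicate 1 and 487 in replicate 2 and a count ratio of 0.730 (interval 0.624 to 0.852). Cldn1 had 377 counts in replicate 1 and 729 in replicate 2 and a count ratio of 0.738 (interval 0.650 to 0.837). Cldn4, with 364 counts in replicate 1 and 413 in replicate 2, went the other way at 1.26 (interval 1.09 to 1.45), as did Nectin4 at 1.198 (interval 1.05 to 1.37).

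By role, all 5 cadherin, Epcam and catenin genes were higher in replicate 2 and 6 of 7 plaque genes were higher in replicate 1, by small amounts. Of the other tight junction genes 6 of 7 and of the desmosomal cadherins 3 of 4 were higher in replicate 2. Claudins went both ways, with 5 higher in replicate 1 and 6 in replicate 2, as did nectins, with 3 higher in replicate 1 and 1 in replicate 2. Over detected protein-coding genes 49.5% were higher in replicate 1 and 50.2% in replicate 2. The summed counts of the cadherin, Epcam and catenin group had a ratio of 0.967 (interval 0.948 to 0.987) and those of the plaque group 1.06 (interval 1.02 to 1.09). The ratio was 0.947 (interval 0.908 to 0.989) for the other tight junction genes and 0.915 (interval 0.845 to 0.989) for the desmosomal cadherins. The intervals included 1 for the claudins, at 0.984 (interval 0.951 to 1.02), and the nectins, at 1.03 (interval 0.997 to 1.07). For all 38 genes together the ratio was 0.990 (interval 0.977 to 1.003). Scaling by the spike-in RNAs instead shifts all genes the same way, by a factor of 0.14 on the log2 scale, or by 0.08 to 0.14 over the detected junction genes because 1 TPM is added. On that scale 27 of 37 junction genes were higher in replicate 1 (73.0%, against 83.2% of detected protein-coding genes), among them all 5 cadherin, Epcam and catenin genes, with Ctnna1 at 0.11 and Ctnnd1 at 0.03, and 2 of the 7 other tight junction genes.

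Marker lists of other cell types also differed between the pools. Neuronal markers summed to 446 TPM in replicate 1 and 345 TPM in replicate 2 (5 of 5 higher in replicate 1), and muscle markers to 339 TPM in replicate 1 and 404 in replicate 2 (5 of 5 higher in replicate 2). Markers of the periderm, the outer layer of embryonic skin, summed to 55.8 TPM in replicate 1 and 47.7 TPM in replicate 2, with Krt4 at 0.16 in replicate 1 and 0.53 in replicate 2. Endothelial markers summed to 146 TPM in replicate 1 and 143 in replicate 2. Epithelial markers, whose sums are given above, went both ways, with Krt15 at a log2 difference of -0.33 and Krt8 at 0.31. Their part in the differences of the junction genes was not tested.

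**Figure D3:**
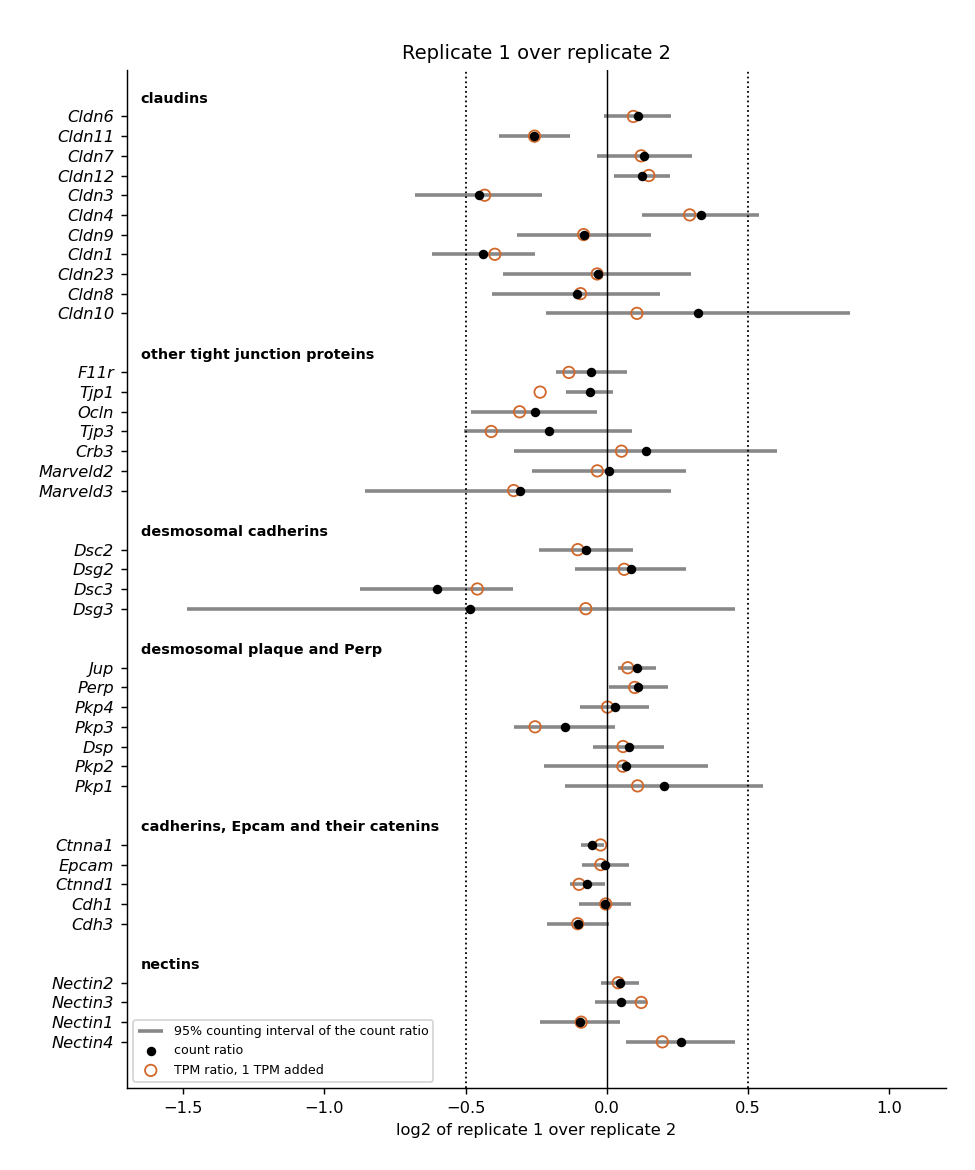
log2 of replicate 1 over replicate 2 for the 38 junction genes, as the ratio of scaled counts (black points) with its 95% counting interval (grey) and as the ratio of TPM with 1 TPM added (open circles), with dotted lines at 0.5 and -0.5. No TPM ratio of a detected gene passes a dotted line, and the intervals of Dsc3, Cldn3 and Cldn1 lie wholly below 0.

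Transcript tables showed which forms of each gene were present. A transcript's share is the percent of its gene's TPM, estimated from reads that often fit several transcripts, so no interval can be given. In 31 of the 38 genes the same transcript led with at least 50% in both libraries, and 7 genes have only 1 annotated transcript. Among detected genes with several transcripts this held for 23 of 30 junction genes (76.7%, against 66.9% of such protein-coding genes). The leading transcript differed between the libraries for 3 genes, Ocln, Marveld2 and Dsc2.

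Desmoplakin transcripts were mainly of the short form. Dsp-202, which corresponds to desmoplakin II and has 2284 codons, took 66.2% in replicate 1 and 66.5% in replicate 2. Dsp-201, which corresponds to desmoplakin I and has 2883 codons, took 33.9% in replicate 1 and 33.5% in replicate 2. The forms part inside exon 23, at chr13:38191361-38193655 on the plus strand (mm10), where the short form leaves out the last 1797 coding bases that code for part of the rod. The point of divergence is shown with 15 bases shared by both forms in lower case and the next 15 bases of each form in capitals:
Dsp-201: aatgagctggcaaagGTAAGAAACCACTAT
Dsp-202: aatgagctggcaaagGCATCTAATAGGATC
The capitals of Dsp-201 continue in the exon, and those of Dsp-202 are the start of the next exon, at position 38194696.

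ZO-1 transcripts mainly carried the alternative exon. The exon that is included in Tjp1-202 and left out of Tjp1-201 is exon 20 of 28, at chr7:65314093-65314332 on the minus strand (mm10), and it codes for the 80 residues of the alpha domain. Tjp1-202, the transcript with the exon, had 12.5 TPM in replicate 1 and 13.6 in replicate 2. The 2 transcripts that skip it, a set put together after the values were seen, are the protein-coding Tjp1-201, with 1.49 TPM in replicate 1 and 0.12 in replicate 2, and the nonsense-mediated decay transcript Tjp1-207, with 1.66 TPM in replicate 1 and 2.42 in replicate 2. Inclusion among all of these was 79.9% in replicate 1 and 84.3% in replicate 2. Among the coding transcripts Tjp1-202 and Tjp1-201 alone, a choice also made after the values were seen, it was 89.4% in replicate 1 and 99.1% in replicate 2. The whole exon reads, from the GENCODE M21 transcript:
Tjp1 exon 20: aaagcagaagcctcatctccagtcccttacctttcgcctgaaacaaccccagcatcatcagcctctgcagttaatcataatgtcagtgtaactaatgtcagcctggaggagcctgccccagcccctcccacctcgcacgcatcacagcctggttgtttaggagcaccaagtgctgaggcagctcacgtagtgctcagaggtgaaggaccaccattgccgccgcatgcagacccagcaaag

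The 0.24 lower log2 level of Tjp1 in replicate 1 lay outside its protein-coding transcripts. Coding transcripts of Tjp1 summed to 14.2 TPM in replicate 1 and 13.9 TPM in replicate 2. Tjp1-203, a short processed transcript of 699 bases, took 12.6% of the gene's TPM from 25.2 counts in replicate 1 and 20.4% from 69.0 counts in replicate 2. The count ratio of the whole gene was 0.958 (interval 0.905 to 1.02).

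Claudin-10 transcripts came mainly from the downstream first exon. Cldn10-203, whose start is that of the b form, took 99.1% of the gene's TPM in replicate 1 and 81.1% in replicate 2. Cldn10-201, with the a form's start in a first exon 66824 bases upstream, took 0.88% in replicate 1 and 18.9% in replicate 2, but the gene had only 57 counts in replicate 1 and 65 in replicate 2. By posterior mean the share of Cldn10-203 was 74.8% in replicate 1 and 73.8% in replicate 2, and that of Cldn10-201 was 18.8% in replicate 1 and 20.6% in replicate 2. The 2 first exons code for different protein starts, identical at 20 of the first 60 coding bases, shown with the start codon in capitals:
Cldn10-203: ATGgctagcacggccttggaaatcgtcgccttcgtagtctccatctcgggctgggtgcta
Cldn10-201: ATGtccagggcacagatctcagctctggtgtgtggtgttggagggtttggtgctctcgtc
The first of these starts lies at chr14:118854990-118855049 and the second at chr14:118788157-118788216, both on the plus strand (mm10).

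p120-catenin transcripts were mostly annotated with the start codon that gives the long form known from mesenchymal cells. Fewer were annotated with the start codon further downstream, which gives the shorter form known from epithelial cells. Transcripts with the start codon of the long form summed to 23.9 TPM in replicate 1 and 25.0 TPM in replicate 2. Those with the downstream start summed to 6.38 TPM in replicate 1 and 8.09 TPM in replicate 2, or 21.1% in replicate 1 and 24.5% in replicate 2 of both sets together. Transcripts with another annotated start or none summed to 5.47 TPM in replicate 1 and 5.27 in replicate 2. This grouping of the transcripts of Ctnnd1, which has 30, was made after their values were seen.

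Nectin-2 transcripts were split between the forms in nearly the same way in both libraries. The short form Nectin2-202, with 467 codons, took 59.6% in replicate 1 and 58.7% in replicate 2, and the long form Nectin2-201, with 530 codons, 40.4% in replicate 1 and 41.3% in replicate 2. The forms of Dsc2 differed more between the libraries. Transcripts of Dsc2 with the 46-base exon that shortens the cytoplasmic tail took 53.6% in replicate 1 and 32.3% in replicate 2, from 276 counts in replicate 1 and 256 in replicate 2.

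Reads of occludin and tricellulin were also divided differently between transcripts in the 2 libraries. Ocln-201 took 49.5% in replicate 1 and 21.96% in replicate 2, while Ocln-202, which has the same number of codons, 521, took 40.06% in replicate 1 and 40.03% in replicate 2. The shorter Ocln-203, with 272 codons, took 10.4% from 16.3 counts in replicate 1 and 32.1% from 91.8 counts in replicate 2. Marveld2-204 took 73.0% in replicate 1 and 38.1% in replicate 2, and Marveld2-201, with the same 555 codons, 12.4% in replicate 1 and 39.5% in replicate 2. By posterior mean the share of Marveld2-204 was 49.2% in replicate 1 and 28.1% in replicate 2, and that of Marveld2-201 was 29.4% in replicate 1 and 38.4% in replicate 2. Under the older annotation release M4, where Marveld2-204 has no value, Marveld2-201 led in both libraries, with 75.2% in replicate 1 and 65.9% in replicate 2. The leading transcripts of Ocln and Dsc2 differed between the libraries by both of these estimates too. By posterior mean alone that of Crb3 differed as well. There Crb3-202 took 45.5% in replicate 1 and 33.8% in replicate 2, and Crb3-205 took 25.0% in replicate 1 and 42.2% in replicate 2. Ocln as a whole had 264 counts in replicate 1 and 450 in replicate 2, and Marveld2 had 193 in replicate 1 and 274 in replicate 2.

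For 7 of 37 detected junction genes at least 10% of the TPM came from transcripts not annotated as protein-coding in both libraries, against 44.5% of detected protein-coding genes. The median share was 0% over the junction genes and 9.07% in replicate 1 and 8.65% in replicate 2 over detected protein-coding genes. A gene with no annotated transcript of such a type has a share of 0 whatever the reads. This holds for several junction genes, among them the 7 with only 1 annotated transcript. Neither set was limited to genes that have such transcripts, so the contrast may reflect the annotation as much as the reads. Pkp4 stood apart. Its processed transcript Pkp4-209 took 73.1% in replicate 1 and 68.1% in replicate 2, and its coding transcripts came to 3.46 TPM in replicate 1 and 3.39 TPM in replicate 2. By this estimate of coding transcripts alone Pkp4 would lie beside Pkp2, with 2.94 TPM in replicate 1 and 2.86 TPM in replicate 2. It would lie below Pkp3, with 7.39 TPM in replicate 1 and 9.01 TPM in replicate 2. Pkp4-209 ends at position 59355205 and the coding Pkp4-210 at 59355204, so reads near this end can fit both. The libraries were primed with oligo-dT, and how far the share of Pkp4-209 depends on this was not tested. Of F11r, the retained-intron transcript F11r-203 took 29.9% in replicate 1 and 35.0% in replicate 2, and its coding TPM was 17.5 in replicate 1 and 17.9 in replicate 2.

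**Figure D4:**
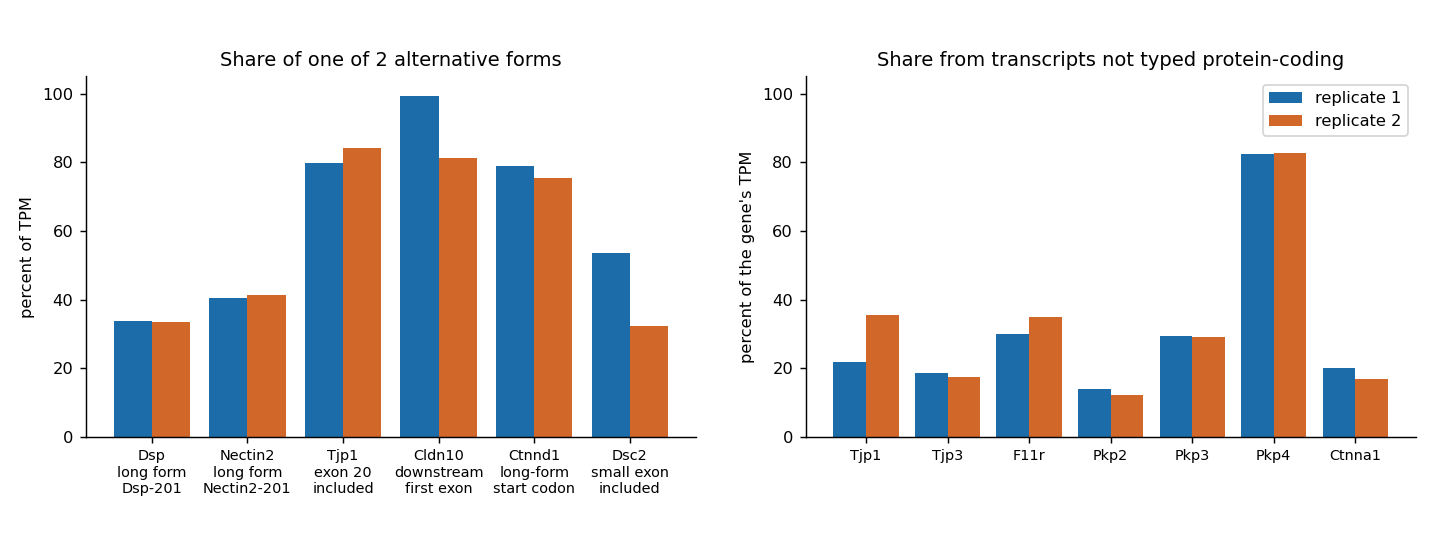
Left, the percent of TPM from the named form among the alternative forms of 6 junction genes (of the gene for Dsp and Nectin2, of the 2 forms together for the others), and right, the percent of the gene's TPM from transcripts not annotated as protein-coding, for the 7 genes with at least 10% in both libraries. Bars of replicate 1 are left of those of replicate 2, with Dsp and Nectin2 nearly level, Dsc2 apart, and Pkp4 above 80% in both.

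The same libraries quantified with annotation release M21 and with the older release M4 gave closely similar levels. Over 37 junction genes detected in both releases, 0 differed by a log2 of at least 0.5 in both libraries, against 4.92% of protein-coding genes higher and 0.963% lower in M21. Lower in M21 in both libraries were 31 (against 76% of protein-coding genes) and higher were 5 (against 20.4%), and the median log2 difference was -0.07 in each library. Expected counts were equal within 1% for 34 of the 38 genes.

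The few larger shifts followed the length assigned to the gene. Pkp3 had 10.5 TPM under M21 and 14.2 TPM under M4 in replicate 1, and 12.7 TPM under M21 and 17.7 TPM under M4 in replicate 2. Its counts were the same, and its effective length under M21 was 1.28 times that of M4 in replicate 1 and 1.33 times in replicate 2. Epcam had 69.2 TPM under M21 and 58.3 TPM under M4 in replicate 1, and 70.2 TPM under M21 and 58.6 TPM under M4 in replicate 2. Its effective length under M21 was 0.802 times that of M4 in replicate 1 and 0.799 times in replicate 2. Under M21 Epcam-204, which starts 703 bases downstream of Epcam-201, took 91.9% in replicate 1 and 90.7% in replicate 2, whereas under M4 all of the gene's TPM was given to Epcam-201. Tjp3 had a log2 difference of 0.20 in replicate 1 and 0.49 in replicate 2.

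**Figure D5:**
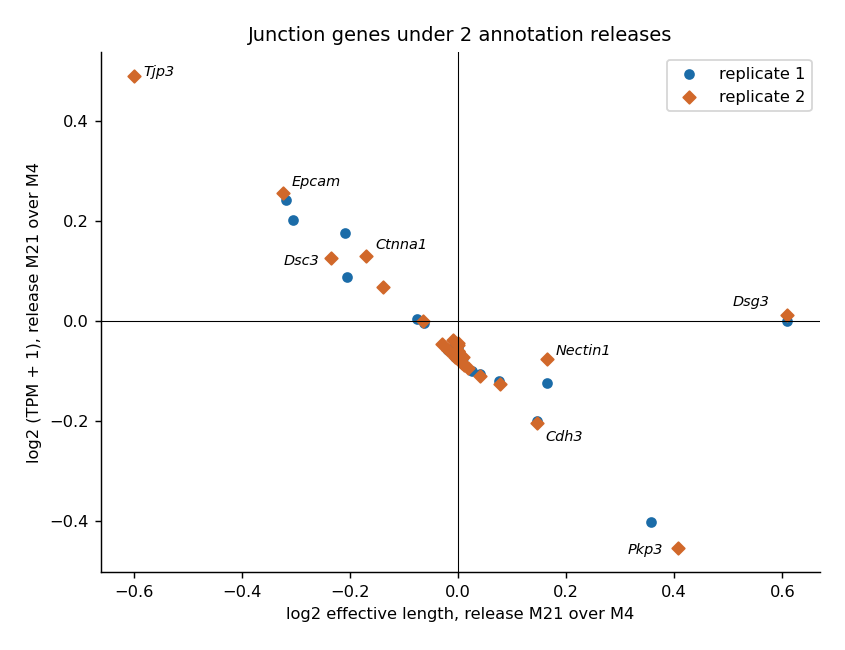
log2 of (TPM + 1) under release M21 over release M4 against log2 of the ratio of effective lengths, for the 38 junction genes in replicate 1 (circles) and replicate 2 (diamonds). Most points sit together just below 0, Pkp3 and Cdh3 with longer M21 lengths lie lower, and Tjp3, Epcam, Ctnna1 and Dsc3 with shorter ones lie higher.

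Upstream sequences from RefSeq (GRCm38.p6) were matched for 22 of the 38 genes, as windows of 250 bases before to 50 bases after each start, and the leading transcript of 16 of the 22 begins within 50 bases of such a start. Motifs were searched on both strands, and a gene was counted where any of its windows held the motif. The 22 junction genes had 32 windows, and all 27025 genes with a window had 32851. CACCTG, the E-box form bound by Snail and Zeb repressors, was in the windows of 13 of 22 junction genes (59.1%), against 20.9% of the 10403 detected protein-coding genes with a window. GGGCGG, the GC box of Sp and Klf factors, was in 19 (86.4%, against 69.7%), AACCGG, the core bound by grainyhead-like factors, in 3 (13.6%, against 12.8%) and TATAAA in 2 (9.09%, against 8.68%). These counts describe letters in windows, not binding, and the motifs and genes were chosen with earlier results known.

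Parts of the windows of Cldn4, Cldn3 and Dsp are shown. The first 2 are the neighbours that differed in opposite directions between the libraries, and the last holds the most GC boxes of the 3. Each line gives the 250 bases before the start, with both kinds of box, on either strand, in capitals:
Cldn4, chr5:134946935-134947184, minus strand: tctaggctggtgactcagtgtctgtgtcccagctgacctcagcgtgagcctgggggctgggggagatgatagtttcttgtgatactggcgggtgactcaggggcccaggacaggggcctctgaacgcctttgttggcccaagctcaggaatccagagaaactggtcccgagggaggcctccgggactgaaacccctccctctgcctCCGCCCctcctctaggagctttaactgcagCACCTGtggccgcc
Cldn3, chr5:134985964-134986213, plus strand: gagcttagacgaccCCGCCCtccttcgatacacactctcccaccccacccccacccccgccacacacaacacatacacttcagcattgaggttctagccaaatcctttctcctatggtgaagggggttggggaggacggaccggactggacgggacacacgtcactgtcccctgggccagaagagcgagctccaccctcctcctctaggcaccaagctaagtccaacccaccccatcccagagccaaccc
Dsp, chr13:38151044-38151293, plus strand: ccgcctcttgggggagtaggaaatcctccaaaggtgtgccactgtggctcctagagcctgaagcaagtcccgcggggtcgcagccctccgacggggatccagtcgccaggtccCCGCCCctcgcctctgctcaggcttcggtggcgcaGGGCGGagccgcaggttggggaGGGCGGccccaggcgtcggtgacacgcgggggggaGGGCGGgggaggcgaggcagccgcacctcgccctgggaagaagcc
In Cldn4 the CACCTG begins 14 bases and the GC box 44 bases before the start. In Cldn3 the GC box of these bases begins 236 bases before the start. In Dsp the 4 GC boxes begin 137, 102, 80 and 45 bases before the start.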

How the data were processed

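PolyA RNA-seq was made from 10 ng of RNA per pool, primed with oligo-dT, with ERCC spike-ins and Nextera tagmentation, per the labels. Per the file headers, the deposited gene tables hold an expected count (estimated reads per gene, which need not be whole), TPM and FPKM, and the deposited transcript tables also the percent of a gene's abundance per transcript. The assembly was mm10 with GENCODE M21 or M4, per the deposited file descriptions. No source used here gives the aligner, the quantifier or the strand setting. Expected counts of 35 of the 38 genes were whole within 0.005. Those of Dsg2, Dsp and Nectin2 were not, so reads had been divided between features. Each of these 3 has an overlapping gene on the opposite strand whose counts were not whole either. Dsg2 had 368.82 counts and its partner Gm16090 had 2.18 in replicate 1, and in replicate 2 they had 497.36 and 6.64. Whether reads were divided across strands was not tested.

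Computed here were means and SDs of TPM, log2 ratios with a pseudocount of 1, count ratio intervals on rounded expected counts (scipy 1.17.1), transcript shares and motif counts. Library totals were 28705073 expected counts in replicate 1 and 41092194 in replicate 2. Rows naming no gene, nearly all spike-ins, took 2.85% in replicate 1 and 3.10% in replicate 2. They stayed out of the gene count totals, but the deposited TPM includes them. A chi-square comparison of the libraries over 19477 genes gave 111057 on 19476 degrees of freedom, so they differ beyond counting noise. Whether spread between pools is biological or technical cannot be told apart. Counts were rescaled with edgeR 4.0.16 and DESeq2 1.42.0 as alternatives, with no test. Data were also simulated for replicate 1 over replicate 2, with counting noise only. Changed genes were drawn from those with at least 50 expected counts in replicate 1. Of these, 50 of 50 genes raised 2-fold and 40 of 50 raised 1.5-fold passed the log2 threshold of 0.5. Of 13182 unchanged genes, 95.3% had intervals that held the true ratio. Such coverage is fixed by how the data were simulated, so it checks the calculation and not the spread between the pools.

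All 38 genes are named. From each other list the 4 genes of highest mean level and those under a TPM of 1 in both libraries could be named, and of transcripts those with at least 10% of a gene's TPM in both. The genes and lists were chosen with earlier results of these data known.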

Additional observations from a re-analysis of the deposited data

How the results depend on the processing

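The number of junction genes detected stayed at 37 with posterior mean TPM, with release M4, with a minimum of 0.5 TPM and in each library alone, and was 34 by FPKM, 25 at a minimum of 5 TPM and 38 for any count above 0. The median level was 9.99 TPM by posterior means, 10.9 TPM under M4 and 6.57 by FPKM, and between 9.87 and 10.2 TPM with 1 library left out. The number past a log2 difference of 0.5, which was 0, was 2 (Dsc3 and Marveld3) with a pseudocount of 0.1 and 1 (Dsc3) with counts scaled by TMM or by DESeq2 size factors. The number higher in replicate 1 was 27 in place of 16 under spike-in scaling (83.2% of detected protein-coding genes were), which moves all genes the same way. There the median log2 difference was 0.11 in place of -0.02, and 11 genes changed sign, among them Ctnna1 (0.11) and Ctnnd1 (0.0348), whose count intervals excluded 1. By the other scalings it was 16 or 17, and 11 at a minimum of 5 TPM. Genes with the same leading transcript at 50% or more numbered between 30 and 36. No paired analysis was possible because the 2 libraries form 1 group. With 2 pools no threshold can be tested, Dsg3, Cldn10, Marveld3 and Crb3 rest on fewer than 100 counts in each library, and intervals cover counting error only.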
